A study of Homo sapiens with 6 samples.

Results

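The Kruppel-like factors (KLFs) examined here were 10 genes, KLF2, KLF3, KLF5, KLF6, KLF7, KLF9, KLF10, KLF11, KLF12 and KLF13, out of 37887 rows in the count table. They were taken by gene symbol, and all 10 were found. RNA-seq had been performed on MDA-MB-436, a human breast cancer line of the triple-negative type with a mutated BRCA1 gene, in cells that carried a stable tetracycline-inducible shRNA against MUC1. The control group was 3 cultures given the vehicle (0.1% DMSO), and the shMUC1 group was 3 cultures given 500 ng/ml doxycycline, which switches the shRNA on. Although the sample titles name the first group for a control shRNA, its treatment label is DMSO, and the inducible MUC1 shRNA was in both groups. Every shMUC1 library had doxycycline and no control library had it, so silencing of MUC1 and the action of the drug cannot be told apart. The length of treatment was not given in the sources used here, and the shRNA is a single construct. That the 3 libraries of a group came from separate cultures rests on the label alone, and p-values measure the spread between these libraries.

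KLFs are transcription factors that bind GC-rich sequences and CACCC boxes through zinc fingers at their C-terminal end, and they differ in the cofactors that their N-terminal parts recruit. KLF2, KLF5, KLF6 and KLF7 are mostly activators that work with acetyltransferases. KLF3 and KLF12 recruit the corepressor CtBP, and KLF9, KLF10, KLF11 and KLF13 recruit the corepressor Sin3A. In epithelial and breast cells the family is known for control of proliferation, differentiation and the response to TGF-beta.

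Libraries held from 18678307 to 27825546 counts. MUC1, the targeted gene, stood at 4.24, 3.45 and 3.95 CPM (counts scaled to the size of the library) in control and at 2.61, 1.98 and 1.83 CPM in shMUC1 libraries, a difference of -0.84 on the log2 scale (SE 0.214; adjusted p 0.00119, quasi-likelihood test of edgeR). All 3 shMUC1 libraries lay below all 3 control libraries, and MUC1 shares 48 bases of exon sequence with another gene on its strand. Of the receptors that define the triple-negative type, ESR1 and PGR were at 0.645 CPM or below in every library and ERBB2 was between 38.4 and 47.3 CPM. Markers of other cells were low. The summed level of 4 endothelial markers was from 4.49 to 5.01 CPM in control and from 1.34 to 2.06 CPM in shMUC1 libraries, that of 4 leukocyte markers from 0.0912 to 0.387 and from 0.538 to 0.932 CPM, and that of 4 fibroblast markers from 8.25 to 10.9 and from 3.44 to 4.13 CPM. CD3E, DCN and LUM had 0 counts in every library. The summed level of 7 epithelial markers went from between 541 and 579 CPM to between 1074 and 1116 CPM, carried by the keratins KRT8 and KRT18, which rose, whereas the claudins CLDN3 and CLDN4 fell, with log2 fold changes of -1.31 and -0.70. GRHL2 had 0 counts in every library. KRT19 and RAB25 were near 0 in both groups, with at most 2 and 4 counts in a control library and 0 in every shMUC1 library. The summed level of the mesenchymal markers VIM, ZEB1 and AXL went from between 1106 and 1164 CPM to between 664 and 715 CPM. Mitochondrially encoded genes took from 3.35% to 4.17% of control counts and from 4.95% to 5.22% of shMUC1 counts. The part of these shifts in the results below was not tested.

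KLF2 rose and KLF6, KLF7 and KLF11 fell when MUC1 was silenced. KLF2 was 1.43-fold higher, KLF11 fell by 25.4%, KLF6 by 20.1% and KLF7 by 14.7%. All 10 members passed the filter on low counts, of which 1 was called higher and 3 were called lower (adjusted p under 0.05), whereas 25.2% of the 15355 tested genes were called higher and 23.6% lower. The 4 of 10 members called in either direction stand beside 48.7% of all tested genes. No member passed an adjusted p under 0.05 together with a fold change over 2, a threshold passed by 5.95% of tested genes. The median of the absolute log2 fold change was 0.15 over the members and 0.24 over all tested genes. Control and shMUC1 libraries did not overlap for 5 members, and they did not for 54.8% of tested genes. The share of members called was thus not above that of all genes. In RNA from whole cultures, fewer cells that express a gene and less of its RNA per cell cannot be told apart.

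**Figure D1:**
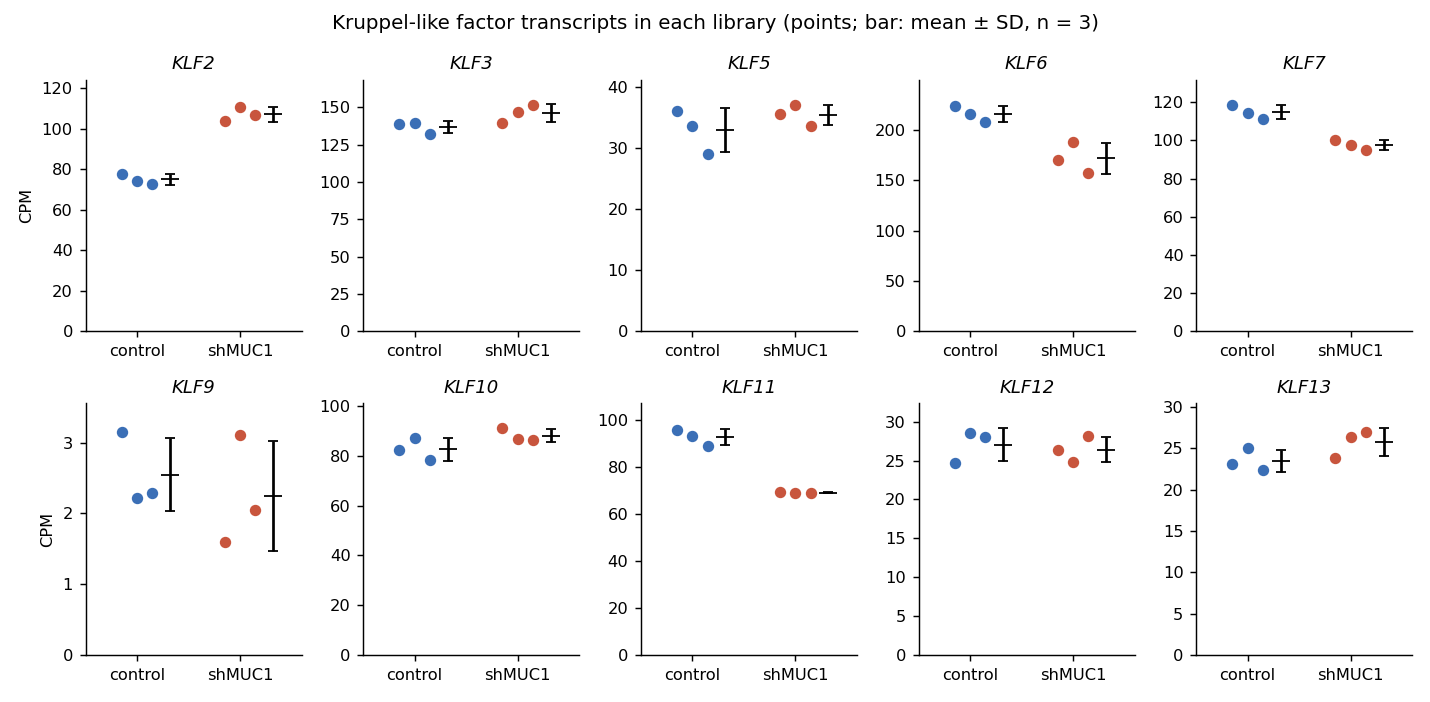
Level of each of the 10 members in CPM (vertical axes, each starting at 0) in the 3 control (blue) and 3 shMUC1 (red) libraries, with the mean and SD as a bar beside the points. The shMUC1 points of KLF2 lie above, and those of KLF6, KLF7 and KLF11 below, all control points.

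The promoters of the members with the largest changes are shown because KLFs and SP factors bind GC boxes and CACCC boxes, and because MEF2 factors are known activators of KLF2. Sequences are from RefSeq (GRCh38.p14), from 250 bases before to 50 bases after each start, and of the 10 members 8 had an entry. Capitals mark the GC box GGGCGG, the box CACCC, the cAMP response word TGACGTCA, the TATA box word TATAAA and the consensus words of MEF2 and of serum response factor, searched on both strands.

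KLF2, chr19:16324576-16324875, + strand: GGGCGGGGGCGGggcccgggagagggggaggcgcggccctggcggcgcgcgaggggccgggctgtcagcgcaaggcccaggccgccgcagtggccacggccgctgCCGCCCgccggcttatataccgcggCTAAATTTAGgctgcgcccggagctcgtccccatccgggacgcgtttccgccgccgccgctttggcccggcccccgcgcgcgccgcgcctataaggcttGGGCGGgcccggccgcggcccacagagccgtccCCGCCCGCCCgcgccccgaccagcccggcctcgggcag
KLF6, chr10:3785160-3785459, - strand: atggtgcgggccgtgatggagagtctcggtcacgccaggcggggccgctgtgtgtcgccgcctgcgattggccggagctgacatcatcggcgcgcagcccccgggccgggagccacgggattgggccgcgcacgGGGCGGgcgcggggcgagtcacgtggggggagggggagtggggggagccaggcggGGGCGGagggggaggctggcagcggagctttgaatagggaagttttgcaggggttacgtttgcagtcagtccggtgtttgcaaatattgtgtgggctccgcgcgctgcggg
KLF11, first start, chr2:10043579-10043878, + strand: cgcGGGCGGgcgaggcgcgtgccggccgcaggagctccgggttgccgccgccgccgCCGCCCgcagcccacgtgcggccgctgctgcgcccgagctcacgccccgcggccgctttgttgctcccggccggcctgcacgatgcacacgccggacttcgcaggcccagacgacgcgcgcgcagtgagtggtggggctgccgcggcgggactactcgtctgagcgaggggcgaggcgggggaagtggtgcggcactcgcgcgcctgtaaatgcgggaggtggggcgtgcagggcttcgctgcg
KLF11, second start, chr2:10043971-10044270, + strand: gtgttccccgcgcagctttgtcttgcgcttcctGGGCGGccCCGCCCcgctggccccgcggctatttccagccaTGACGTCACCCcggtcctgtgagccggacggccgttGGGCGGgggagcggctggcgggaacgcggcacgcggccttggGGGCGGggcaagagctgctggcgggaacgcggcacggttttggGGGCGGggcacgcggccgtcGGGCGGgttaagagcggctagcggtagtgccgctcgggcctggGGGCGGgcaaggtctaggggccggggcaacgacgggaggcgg

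KLF2 lies at chr19:16324817-16327874 on the + strand, KLF6 at chr10:3775996-3785281 on the - strand and KLF11 at chr2:10042849-10054836 on the + strand (GENCODE 29, GRCh38). The KLF2 promoter held 6 matches to GGGCGG and 1 to the MEF2 consensus, which begins at position -120 from the transcription start. The MEF2 consensus was in 0.572% of 35116 promoters of the same length, and GGGCGG was in 45%. The KLF6 promoter held 2 GGGCGG and no other of the words. The KLF11 starts held 2 and 7 GGGCGG, and the second start held TGACGTCA, found in 1.85% of promoters, with a CACCC that overlaps it. CACCC was in 59.9% of all promoters, TATAAA in 11.5% and the serum response factor consensus in 1.29%. GC content was 80.7% for KLF2, 70.7% for KLF6 and 77.3% and 75.3% for KLF11, against a median of 58.7% over all promoters. Members not called also had such windows: KLF13 at 78.3% with 3 GGGCGG, KLF12 at up to 72.3% with 5 and KLF5 at up to 71.3% with 2. Other windows of KLF12 and KLF5 went down to 41% and 40.7%, and KLF9 was at 32.7% with 0. KLF7, called lower, ranged from 42.7%, with 1 serum response factor match, to 70%, with 4 GGGCGG. A match is a string of letters, and no factor was mapped to these windows here.

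Among the activators, KLF2 is best known from endothelial cells and quiescent T cells, where it holds back inflammation and growth. KLF2 was at 77.9, 74.5 and 72.6 CPM in control libraries and at 104, 111 and 107 CPM in shMUC1 libraries. Every shMUC1 library was above every control library. The means were 75.0 ± 2.69 and 107 ± 3.63 CPM (SD, n = 3 each), a difference of 0.52 on the log2 scale (SE 0.0451; edgeR adjusted p 3.45e-12). A larger absolute change was found in 22.1% of tested genes. The endothelial markers were at 2.96 CPM or below in every library, and of these PECAM1 (log2 fold change -1.94) and KDR (log2 fold change -1.33) fell. Both falls rest on low counts. PECAM1 had 36, 40 and 25 counts in control and 13, 4 and 9 in shMUC1 libraries, and KDR had 54, 72 and 71 and then 38, 29 and 12. The other markers of that list, VWF and CDH5, did not pass the filter.

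KLF6 is a broadly expressed early-response factor and tumor suppressor that activates CDKN1A. It was at 224, 215 and 208 CPM in control and at 170, 188 and 157 CPM in shMUC1 libraries. The groups did not overlap, although the spread within shMUC1 was the wider of the pair. Its means were 216 ± 8.04 and 172 ± 15.2 CPM (SD, n = 3 each), a difference of -0.32 on the log2 scale (SE 0.0436; edgeR adjusted p 7.54e-08).

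KLF7, a close relative of KLF6 known for its role in neurons and in fat cells, was at 119, 114 and 111 CPM in control and at 100.5, 97.6 and 94.98 CPM in shMUC1 libraries. Again the groups were apart. The log2 fold change was -0.23 (SE 0.0421) with an edgeR adjusted p of 1.88e-05, and 52.5% of tested genes changed by more in absolute terms.

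KLF5, a growth-promoting factor of basal epithelial cells, did not pass the test. It was at 36.2, 33.7 and 29.1 CPM in control and at 35.5, 37.0 and 33.7 CPM in shMUC1 libraries, with overlap between the groups. Its log2 fold change was 0.11 (95% interval from -0.0400 to 0.26), so changes of up to that size in the upward direction are compatible with the data.

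Of the CtBP-binding repressors, neither KLF3 nor KLF12 passed the test. KLF3, which restrains fat-cell and B-cell programs, was at 139.0, 139.4 and 132.3 CPM in control and at 139.6, 147.0 and 151.6 CPM in shMUC1 libraries. The groups were apart by the narrowest of margins, 139.4 against 139.6 CPM. The log2 fold change was 0.09 (SE 0.0399), with an edgeR adjusted p of 0.0554, which fell to 0.0478 without control replicate 2, 0.0231 without shMUC1 replicate 1 and 0.0419 with no filter on low counts. KLF3 shares 266 bases of exon sequence with KLF3-AS1 on the opposite strand, which had from 1 to 12 counts, and its processed pseudogene KLF3P1 had from 4 to 12 counts. KLF12, first described as a repressor of TFAP2A, was at 24.6, 28.5 and 28.03 CPM in control and at 26.3, 24.8 and 28.1 CPM in shMUC1 libraries. The groups overlapped throughout, with a log2 fold change of -0.04 (95% interval from -0.20 to 0.12).

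Of the Sin3A-binding repressors, KLF11 fell and the other members were not called. KLF11, a TGF-beta-inducible repressor, was at 95.4, 93.2 and 88.8 CPM in control and at 69.2, 68.8 and 68.7 CPM in shMUC1 libraries. The shMUC1 libraries were nearly equal to one another and all below control. Means were 92.4 ± 3.36 and 68.9 ± 0.264 CPM (SD, n = 3 each), a difference of -0.42 on the log2 scale (SE 0.0461; edgeR adjusted p 8.19e-10). KLF11 shares 416 bases of exon sequence with an antisense gene, AC104794.4, and whether counting used strand was not given in the sources used here.

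KLF10, the closest relative of KLF11 and likewise TGF-beta-inducible, was at 82.1, 87.2 and 78.3 CPM in control and at 91.2, 86.6 and 86.3 CPM in shMUC1 libraries. The groups overlapped. Its log2 fold change was 0.09 (SE 0.0471), with an edgeR adjusted p of 0.0945, which was 0.0255 without control replicate 2. Within a library, the count ratio of KLF10 to KLF11 was 0.861, 0.936 and 0.882 in control and 1.32, 1.26 and 1.26 in shMUC1. KLF11 thus had more counts in every control library and KLF10 in every shMUC1 library. Per kb of exon sequence, KLF10 (20.6 CPM) and KLF11 (20.1 CPM) already overlapped in control. This pair was chosen after its values were seen, and the ratio is given as a description with no test.

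KLF13, which activates the chemokine gene CCL5 in T cells, was at 23.1, 25.0 and 22.4 CPM in control and at 23.8, 26.4 and 26.9 CPM in shMUC1 libraries. The groups overlapped, with a log2 fold change of 0.13 (95% interval from -0.0324 to 0.29). KLF9, a glucocorticoid- and thyroid hormone-inducible factor, was the least abundant member, at 69, 54 and 59 counts in control and at 44, 80 and 38 counts in shMUC1 libraries. Its log2 fold change was -0.17, with a 95% interval from -0.70 to 0.35. A fall larger than that of KLF11 is within this interval, and a rise as large as that of KLF2 is not.

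**Figure D2:**
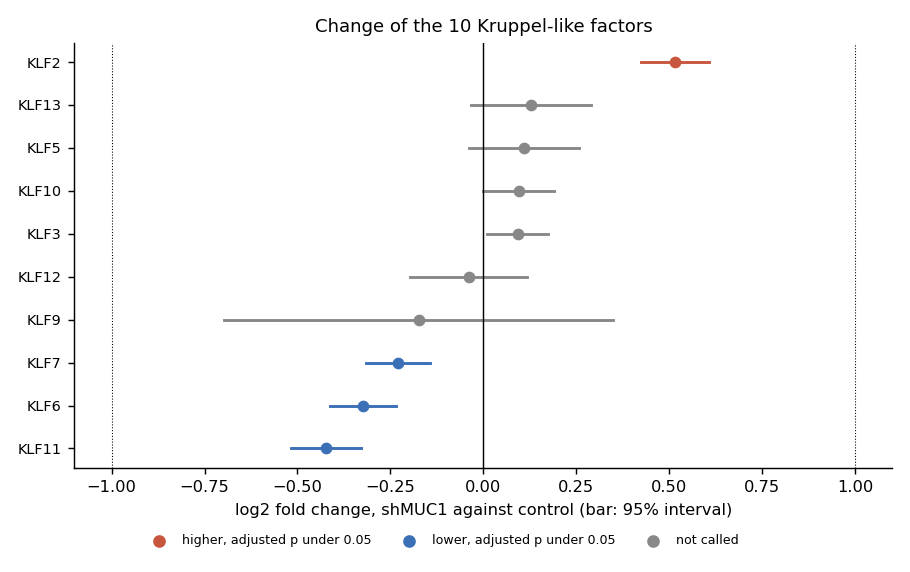
Log2 fold change of each member between shMUC1 and control (horizontal axis; point, estimate; bar, 95% interval from the edgeR fit, 3 libraries a group; red, called higher; blue, called lower; grey, not called), in order of size. KLF2 is the member called higher at 0.52, KLF7, KLF6 and KLF11 are called lower at -0.23, -0.32 and -0.42, and no bar reaches the dotted lines of a 2-fold change.

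To compare members with one another, CPM was divided by the length of annotated exon sequence in kb. In control cells KLF2 was at 37.2 ± 1.33 and KLF6 at 35.1 ± 1.31 CPM per kb (SD, n = 3 each), with overlapping libraries. KLF3 (21.7), KLF10 (20.6) and KLF11 (20.1 CPM per kb) followed, and neighbours among these also overlapped. Next came KLF7 at 12.4 and KLF5 at 8.47 CPM per kb, each apart from its neighbours. KLF13 (2.49) and KLF12 (2.48 CPM per kb) overlapped, and KLF9 was lowest at 0.493 CPM per kb. In shMUC1 cells the order of the 10 members was the same, but KLF2 at 53.1 ± 1.7996 stood apart from KLF6 at 27.98 ± 2.48 CPM per kb (SD, n = 3 each), and KLF10 at 22.0 stood apart from KLF11 at 15.01 CPM per kb. The first place in control depends on the length used: per kb of the longest transcript, KLF6 led at 46.3 against 37.2 for KLF2 in control, and KLF2 led at 53.1 against 36.9 for KLF6 in shMUC1 cells.

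**Figure D3:**
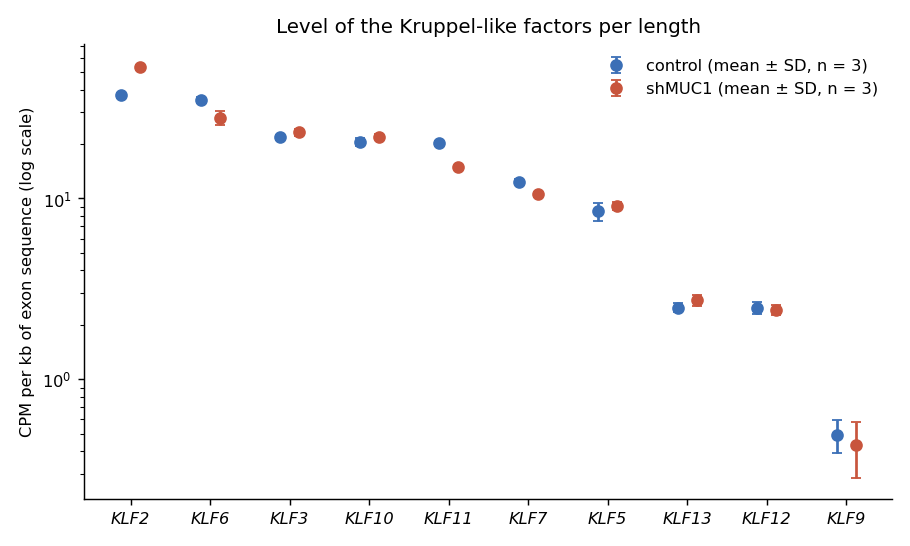
Level per length of each member in CPM per kb of exon sequence (vertical axis, log scale) in control (blue) and shMUC1 (red) libraries, as mean and SD of 3 libraries. Levels run from 0.493 CPM per kb for KLF9 to 37.2 for KLF2 in control, and the gap between KLF2 and KLF6 opens in shMUC1.

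The summed level of the 10 members was 803 ± 26.8 CPM in control and 769 ± 18.0 CPM in shMUC1 libraries (SD, n = 3 each), with overlap between the groups. Within that sum KLF6 took 26.8% ± 0.338 of counts in control and 22.3% ± 1.48 in shMUC1 libraries, and KLF2 took 9.34% ± 0.156 and 13.9% ± 0.265 (SD, n = 3 each). The count ratio of KLF2 to KLF6 was 0.348, 0.346 and 0.350 in control and 0.610, 0.592 and 0.679 in shMUC1 libraries. Shares of 1 sum are tied to each other, so they are given without a test.

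The 3' untranslated regions (UTRs) of the members were searched for ATCAGTA and its core TCAGTA, a word that came from earlier results of these data. The median log2 fold change was -0.13 over 1510 tested genes with ATCAGTA in the longest annotated 3' UTR and 0.03 over the remainder of 13023 genes. ATCAGTA was in 11.6% and TCAGTA in 35.5% of these genes. The difference in medians gives no separate support, since the word came from these data. Genes with and without the word were not matched for 3' UTR length. Among the members, 3 held ATCAGTA (KLF3, KLF10 and KLF12) and 7 held TCAGTA. Member 3' UTRs were long, with a median of 3368 bases against 1416 over the tested genes. Sites of the full word are from KLF3 and KLF12, and sites of the core are from KLF6, KLF7 and KLF11. They are given as a description with no test. Capitals mark the word.

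KLF3, chr4:38700288-38700316, + strand: ccatctgcactATCAGTAttgcactaatg
KLF12, chr13:73692790-73692818, - strand: ccttttgacgtATCAGTActtctaagaag
KLF12, chr13:73689402-73689430, - strand: ctactgaggctATCAGTAaaattatactc
KLF6, chr10:3778101-3778129, - strand: ccctttacatgTCAGTAtttgttcaacac
KLF11, chr2:10052675-10052703, + strand: tgggaccctgtTCAGTAtcttttgtagtt
KLF7, chr2:207078342-207078370, - strand: gtctgaaatgtTCAGTAatttctctctct
KLF7, chr2:207076881-207076909, - strand: aaaatgaacatTCAGTAaatagaacctga

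KLF3, KLF10 and KLF12, which held the full word, had log2 fold changes of 0.09, 0.09 and -0.04 and were not called. KLF6, KLF7 and KLF11, which fell, held 1, 2 and 1 copies of the core without the leading A. KLF5, which was not called, also held 1 such copy, and KLF3 and KLF12 held such copies beside the full word. KLF2, KLF9 and KLF13 held neither. The part of the word in the changes of these genes was not tested.

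The relatives of the members were taken as a list of 15 other KLF and SP factors. KLF4 was neither in this list nor among the members. Of the 15, 12 were tested, with 2 called higher, 1 lower and 9 neither, beside 25.2% and 23.6% of all tested genes called higher and lower. The median log2 fold change was -0.12, against 0.00058 over all tested genes. SP1 and SP3, the ubiquitous GC-box activators, were abundant and not called, at 238 ± 8.84 and 232 ± 6.02 CPM for SP1 and at 335 ± 7.79 and 320 ± 13.8 CPM for SP3 (SD, n = 3 each, control and shMUC1). SP4, a relative of SP1 best known from neurons, was at 56.1, 55.5 and 54.9 CPM in control and at 38.7, 39.8 and 36.2 CPM in shMUC1 libraries. These groups were far apart, with a difference of -0.53 on the log2 scale (SE 0.0581; edgeR adjusted p 7.56e-10). SP6 and SP8, factors of limb and tooth development, rose from low levels, from 0.945 ± 0.0520 to 2.77 ± 0.682 CPM for SP6 and from 0.925 ± 0.351 to 2.50 ± 0.300 CPM for SP8 (SD, n = 3 each). Their log2 fold changes were 1.53 (SE 0.289) and 1.41 (SE 0.302), with edgeR adjusted p of 2.93e-05 and 0.000169. KLF16, SP2, KLF14, KLF15, KLF17, SP5 and SP9 were tested and not called, with log2 fold changes from -0.95 for KLF17 to -0.0042 for KLF14. KLF1 had 0 counts in all libraries (a count of 0 leaves room for 0.161 CPM in the smallest library), and KLF8 and SP7 did not pass the filter.

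The cofactors through which KLFs act were 9 genes, all tested, with 2 higher, 3 lower and 4 not called and a median log2 fold change of -0.04. Among all tested genes, 25.2% were called higher and 23.6% lower. CTBP1, one of the corepressors that KLF3 and KLF12 bind, was at 81.6, 72.0 and 79.3 CPM in control and at 45.2, 45.7 and 38.3 CPM in shMUC1 libraries. It thus fell in every library, with a difference of -0.84 on the log2 scale (SE 0.0600; edgeR adjusted p 1.54e-14). Its paralog CTBP2 was not called, at 69.2 ± 3.64 and 67.2 ± 1.99 CPM (SD, n = 3 each). The scaffold genes SIN3A and SIN3B, through which KLF9, KLF10, KLF11 and KLF13 repress, had log2 fold changes of -0.01 and -0.11 and were not called, while the deacetylases HDAC1 and HDAC2 that Sin3A carries rose by 0.21 and 0.14 on the log2 scale. The acetyltransferases CREBBP and EP300 had log2 fold changes of -0.22 and -0.15, and both fell.

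Upstream regulators of the members were 12 genes, of which 11 were tested, 4 were higher, 5 lower and 2 not called, with a median log2 fold change of -0.11. Over all tested genes, 25.2% were called higher and 23.6% lower. MEF2A and MEF2D, known activators of KLF2 downstream of the kinase MAPK7 (ERK5), went opposite ways. MEF2D was at 53.4 ± 1.59 CPM in control and at 71.0 ± 0.872 CPM in shMUC1 libraries and rose, with a difference of 0.41 on the log2 scale. MEF2A was at 53.4 ± 2.39 and 35.7 ± 1.11 CPM (SD, n = 3 each) and fell, with a difference of -0.58 on the log2 scale. The MEF2 word in the KLF2 promoter printed above is a match of letters only. Receptors for TGF-beta, which induces KLF10 and KLF11, also parted. TGFBR2 was at 121, 112 and 117 CPM in control and at 231, 249 and 212 CPM in shMUC1 libraries, a difference of 0.99 on the log2 scale (SE 0.0441; edgeR adjusted p 1.91e-20). TGFBR1 was at 147, 150 and 148 CPM in control and at 91.6, 91.7 and 86.5 CPM in shMUC1 libraries, a difference of -0.72 on the log2 scale (SE 0.0406; edgeR adjusted p 2.00e-17). Neither gene had overlapping groups. The receptor-activated SMAD2 had a log2 fold change of -0.52 and fell, and NR3C1, the glucocorticoid receptor that induces KLF9, rose by 0.29 on the log2 scale. The remaining called genes of this list lie outside the naming rule and are given to complete it: SMAD3 rose by 0.24 on the log2 scale, and MAPK7 and SMURF1, a ubiquitin ligase for KLF2, had log2 fold changes of -0.23 and -0.22.

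Genes described as direct targets of the members numbered 12, of which 11 were tested, 5 were higher, 4 lower and 2 not called, beside 25.2% of all tested genes called higher and 23.6% lower, with a median log2 fold change of 0.23. KLF2 had 3 listed targets, of which S1PR1 and THBD were tested and both rose. S1PR1, the sphingosine-1-phosphate receptor, was at 10.7, 13.8 and 12.3 CPM in control and at 21.3, 22.2 and 18.1 CPM in shMUC1 libraries, a difference of 0.75 on the log2 scale (SE 0.102; edgeR adjusted p 1.08e-07). THBD, the anticoagulant thrombomodulin, was at 2.37, 3.20 and 3.48 CPM in control and at 5.50, 5.51 and 5.16 CPM in shMUC1 libraries, a difference of 0.83 on the log2 scale (SE 0.179; edgeR adjusted p 0.000178). Neither gene overlapped between the groups. NOS3, the endothelial nitric oxide synthase, had 0 counts in all 3 control libraries and 14, 8 and 10 counts in shMUC1 libraries. It did not pass the filter and has no test, and against a floor of 3 counts in the shallowest control library its mean was at least 3.30-fold higher. That bound takes each count as 1 independent read. Low counts were even more often than odd in every library, as counting both mates of a read pair would give, and if pairs were counted so the bound would be lower. The part of KLF2 in the changes of S1PR1, THBD and NOS3 was not tested, and the list was chosen with earlier results of these data known.

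Listed targets of the other members included genes called higher and genes called lower. LGALS3 (galectin-3), a gene that KLF3 represses, rose from 149 ± 3.38 to 202 ± 7.06 CPM (SD, n = 3 each; 0.44 on the log2 scale), and is named outside the rule because it is the single KLF3 target listed. Of the KLF5 targets, the cell cycle gene CCND1 and the growth factor gene PDGFA had log2 fold changes of -0.30 and -0.24 and fell. FGFBP1, which binds fibroblast growth factors, was called higher at a log2 fold change of 1.67 (SE 0.564). It passed the filter on low counts only through the shMUC1 group, where it is high, so its call carries little weight. It rests on 8, 2 and 4 control counts, and its edgeR adjusted p went from 0.0133 to 0.0909 without control replicate 2, 0.0649 without control replicate 3 and 0.0521 without shMUC1 replicate 2. The KLF6 targets parted, since the TGF-beta co-receptor ENG fell, at a log2 fold change of -0.27, and the cell cycle inhibitor CDKN1A, also outside the rule, rose by 0.72 on the log2 scale. SMAD7, a target of KLF10 and KLF11 that is also outside the rule, went from 19.7 ± 0.531 to 17.0 ± 0.404 CPM (SD, n = 3 each) with an edgeR adjusted p of 0.0436. This call was lost in 9 of 15 alternatives, among them each fit that left out 1 library (edgeR adjusted p from 0.053 to 0.131). TFAP2A and CCL5 were not called.

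**Figure D4:**
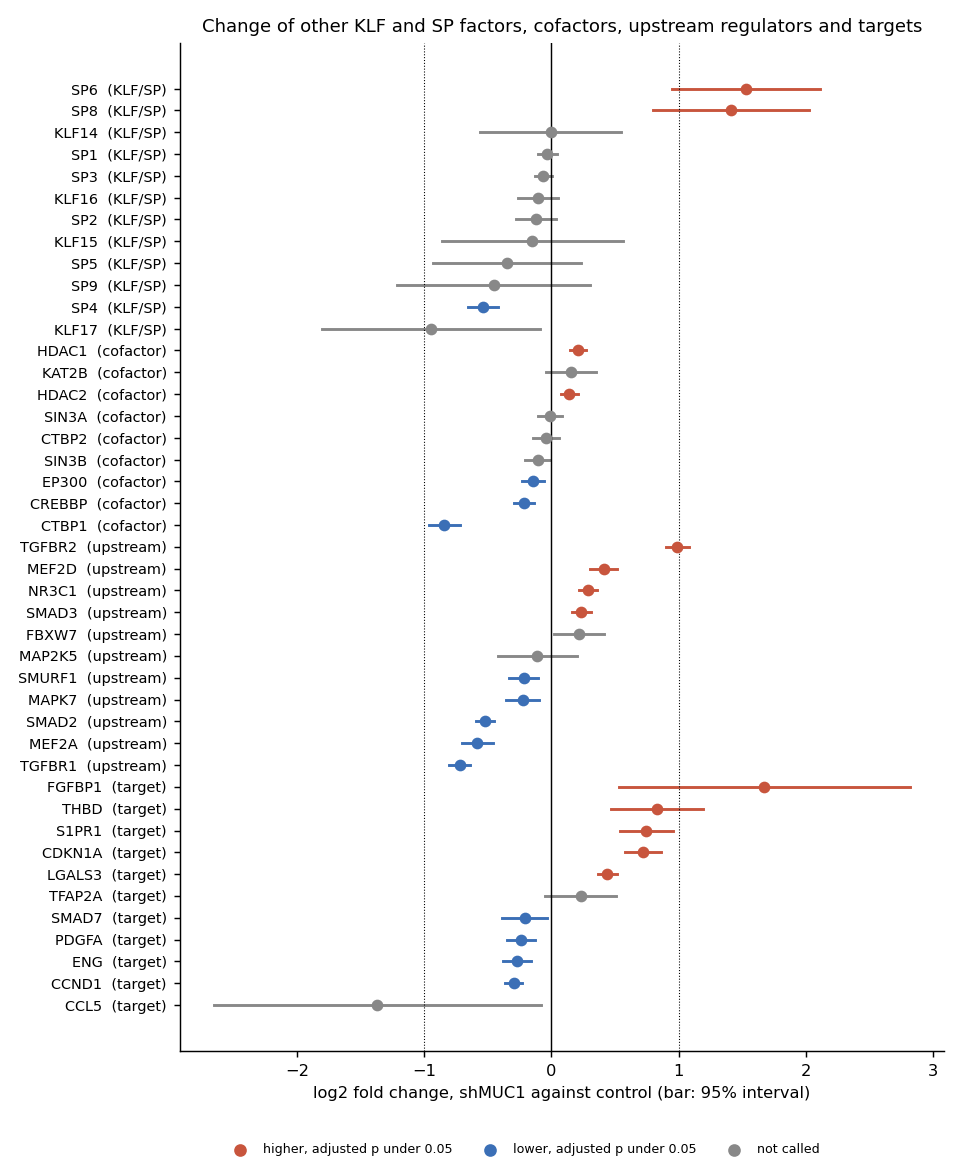
Log2 fold change between shMUC1 and control (horizontal axis; point, estimate; bar, 95% interval from the edgeR fit, 3 libraries a group; red, called higher; blue, called lower; grey, not called) for tested genes of 4 lists: other KLF and SP factors, cofactors, upstream regulators and described targets. CTBP1 at -0.84 is the lowest called gene of the 4 lists and FGFBP1 at 1.67 the highest. FGFBP1 passed the filter on low counts only through the shMUC1 group. TGFBR1 and TGFBR2 lie on opposite sides of 0.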

How the data were processed

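The deposited file of the authors held unnormalized counts by gene symbol for 6 libraries (TruSeq Stranded mRNA), 1 column per library. The submitters' processing notes name CASAVA 1.8.2, STAR 2.7.9a, featureCounts, DESeq2 1.24.0 and GRCh38.p7. Annotation release and strand setting were not given in the sources used here. Totals were from 18678307 to 27825546 counts. Values from 1 to 20 were even in 68.8% to 70.5% of cases per library, and halved counts were therefore tried.

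Differences were tested over the whole table by quasi-likelihood in edgeR 4.0.16 (R 4.3.3; TMM scaling, filterByExpr, group as the only term), two-sided, with Benjamini-Hochberg adjustment over 15355 genes. The threshold for a call was an adjusted p of 0.05. CPM used TMM-scaled totals. SE came from the F statistic, and 95% intervals from SE and the moderated degrees of freedom. The fit was also run on simulated data in which a small set of genes changed by 2-fold. No called member changed by that much, so that run does not gauge calls of their size. Lengths, 3' UTRs and overlaps came from GENCODE 29 (GRCh38), which held 98.1% of symbols, and promoters from RefSeq (GRCh38.p14). Amino acid sequences were not used here.

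The members and lists were chosen with earlier results of these data known. The rule for named genes was the members, MUC1, tested KLF and SP relatives, and up to 3 higher and 3 lower called genes for each other list. Further genes of these lists, called or not, were named beside them to complete the lists. Alternatives were DESeq2 size factors, library totals, other filters, DESeq2 1.42.0, limma-voom 3.58.1, a replicate block, halved counts, mitochondrial genes left out, each library left out, a fold change threshold, and, for levels, another length or scaling. Floors and intervals cover counting error or the spread between libraries only. Each library counted as 1 sample. Within groups, chi-square over degrees of freedom between libraries was from 2.79 to 5.55. Counting both mates of a read pair would also raise this value. It cannot tell separate cultures from separate preparations of 1 culture.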

Additional observations from a re-analysis of the deposited data

How the results depend on the processing

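KLF2, KLF6, KLF7 and KLF11 kept their direction and their call in 15 of 15 alternatives each, with log2 fold changes from 0.48 to 0.55, -0.39 to -0.26, -0.26 to -0.20 and -0.46 to -0.40. MUC1 did so too, from -1.02 to -0.75. The count of members called higher was 2 with no low-count filter. It was from 1 to 3 in the fits that each left out 1 library (3 without control replicate 2, 2 without shMUC1 replicate 1, from KLF3 and KLF10). With a fold change over 2, members called higher were 0 and members called lower were 0, since no member changed by that much. The same threshold left 339 higher and 575 lower genes of the 3866 and 3617 over the whole table, and 3 higher and 0 lower of 16 and 13 over the 5 other lists. Per kb of the longest transcript the summed level of the members was 185 in control and 188 CPM per kb in shMUC1, against 161.1 and 166.5 per kb of exon sequence, since the divisor is shorter.

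Values near 0 changed sign and were called in no fit: without 1 library, KLF9 ranged from -0.50 to 0.0435, KLF12 from -0.0997 to 0.0057, KLF14 from -0.18 to 0.18, CTBP2 from -0.0786 to 0.0049 and SIN3A from -0.0254 to 0.0047. KLF14 was also at 0.0056 with no low-count filter and at 0.0074 with limma-voom. The cause was not tested. Of the 10 members KLF9 had the fewest counts, 80 or fewer in every library.

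No pairing by replicate number was seen over all genes. The deviations of libraries 1, 2 and 3 from the mean of their group correlated across genes at 0.0049, -0.0324 and -0.0382. Such a correlation cannot detect a factor that libraries share for few genes. In the fit with a replicate block, 1 member was higher and 3 lower, 3885 and 3591 genes were called over the table, and MUC1 was at -0.86. Among the listed genes the block ended the call of SMAD7 (adjusted p 0.0572) and added FBXW7 (adjusted p 0.0425). Calls near the threshold also came up for SP3 with library totals (adjusted p 0.0308), for SIN3B with library totals (0.0281) and for KLF17 with halved counts (0.0493).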

Other observations

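KLF9 is one of several genes that glucocorticoids induce, and the others on a list of 6 were examined beside it. ZBTB16 had 0 counts in every library. Of the 5 tested, 3 rose, 0 fell and 2 were not called, beside 25.2% of all tested genes called higher and 23.6% lower, with a median log2 fold change of 0.29. SGK1, a kinase that regulates sodium transport, was at 281, 284 and 268 CPM in control and at 378, 394 and 349 CPM in shMUC1 libraries, a difference of 0.43 on the log2 scale (SE 0.0368; edgeR adjusted p 2.14e-12). TSC22D3 (GILZ), an anti-inflammatory leucine zipper protein, was at 6.56 ± 0.448 CPM in control and 9.73 ± 0.446 CPM in shMUC1 libraries (SD, n = 3 each; 0.57 on the log2 scale, edgeR adjusted p 0.000251). The phosphatase gene DUSP1 rose by 0.29 on the log2 scale, while FKBP5 and PER1 had log2 fold changes of 0.23 and 0.15 and were not called. PER1 was called without shMUC1 replicate 3, at 0.26 on the log2 scale (edgeR adjusted p 0.0484). KLF9 itself was not called, and the upper end of its 95% interval, 0.35, lies above the log2 fold change of DUSP1 and below that of SGK1.

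Copies of the members contributed few counts. KLF2P1, KLF2P2, KLF2P3, KLF3P2 and KLF7P1 had 0 counts in every library, KLF2P4 had 2 counts in 1 library, and KLF3P1 had 12, 9 and 8 counts in control and 4 in each shMUC1 library. KLF7-IT1, a transcript inside an intron of KLF7, had from 3 to 21 counts.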
